A study of Arabidopsis thaliana with 10 samples.

Results

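The 10 genes described here are the writers, erasers, reader and partners of trimethylation at lysine 27 of histone H3 (H3K27me3) in Arabidopsis thaliana, out of 33602 genes in the deposited table. They are taken by name and gene ID. They are 3 demethylases (REF6, AT3G48430; ELF6, AT5G04240; JMJ13, AT5G46910), 2 methyltransferases (CLF, AT2G23380; SWN, AT4G02020), 3 further subunits of Polycomb repressive complex 2 (FIE, AT3G20740; EMF2, AT5G51230; VRN2, AT4G16845), the reader LHP1 (AT5G17690) and the chromatin remodeller BRM (AT2G46020). The table itself carries no name for AT5G46910 and lists AT4G02020 under its other name EZA1. All 10 passed the filter on low counts, which kept 19768 genes.

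H3K27me3 is a mark of repressed chromatin that Polycomb repressive complex 2 (PRC2) deposits and that dividing cells can pass on. In Arabidopsis, CLF and SWN are the catalytic subunits active in leaves, LHP1 binds the mark, and the Jumonji proteins REF6, ELF6 and JMJ13 remove it. REF6 binds DNA through its own zinc fingers and works at many sites together with BRM, an ATPase of the SWI/SNF family that opposes Polycomb repression. REF6 is also known to act on the heat shock factor gene HSFA2 in the memory of heat.

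The question behind the series was how growth in heat affects later, unstressed generations. PolyA RNA of true leaf 5 of plants 4 weeks old was sequenced in 5 groups of 2 libraries. The groups were wild-type Col-0 at 22 °C, Col-0 grown at 30 °C (generation 1), the unstressed progeny of those plants (generation 2), the unstressed progeny of generation 2 (generation 3), and unstressed sgs3-12, a mutant of SGS3, which is needed for trans-acting siRNAs. Seedlings spent their first week at 22 °C before they stayed there or moved to 30 °C, in days of 16 h light and 8 h dark. Nothing in the labels ties a pair of libraries to separate plants, so a p-value here reflects no more than the spread between such libraries, which may be technical.

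Total counts ran from 17674090 to 23145159 per library. Levels are given as CPM, a gene's count scaled to the library total after trimmed-mean (TMM) scaling. Several libraries stood apart. In library 1 of generation 2 the deviation of a gene from its mean over all libraries fell by 2.13 on the log2 scale for each 10-fold increase in gene length, and in library 1 of generation 3 it fell by 1.16. The slope was 0.50 and -0.11 in their partners, 0.81 and 0.62 in wild type, -0.43 and 0.04 at 30 °C, and 1.13 and 0.72 in sgs3-12. Library 2 of generation 2 had the stress gene WRKY40 at 208 CPM, against 0.133 to 29.2 CPM in the other 9. The evening clock gene TOC1 had 163 CPM in wild-type library 2 and 14.3 CPM in library 1, while the morning gene CCA1 had 13.8 and 110.3 CPM. These 3 genes were picked after their values were seen. The 4 leaf markers summed to between 35312 and 88704 CPM in every library, the 4 root hair markers to at most 0.169 CPM, and the 7 shoot meristem and flower markers to at most 6.17 CPM, with STM, WUS and CLV3 at 0 throughout. SGS3 had 24.0 and 35.1 CPM in wild type and 9.40 and 8.02 CPM in sgs3-12. It was just as low in generation 2, at 9.48 and 7.87 CPM. At 30 °C it had 25.4 and 21.0 CPM, which overlapped wild type. In generation 3 it had 14.1 and 15.2 CPM, between the mutant and wild type.

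REF6 (TAIR10 chromosome 3, 17935609 to 17940746) stood at 26.6 and 22.3 CPM in wild type, 12.6 and 19.4 CPM at 30 °C, 2.86 and 16.8 CPM in generation 2, 5.04 and 17.3 CPM in generation 3, and 32.4 and 25.1 CPM in sgs3-12. All 6 libraries of the heat lineage (30 °C and its progeny) lay below both wild-type libraries, and library 2 of sgs3-12 lay between them. Within generations 2 and 3 the libraries lay further apart than the higher one lay from wild type. Relative to wild type, REF6 differed by a log2 fold change of -0.61 ± 0.79 at 30 °C, -1.31 ± 0.80 for generation 2, -1.13 ± 0.80 for generation 3 and 0.23 ± 0.79 in sgs3-12 (SE with n = 2 per group). The adjusted p-values of edgeR's quasi-likelihood test over all 19768 genes were 0.907, 0.543, 0.680 and 0.960.

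ELF6 (chromosome 5, 1169544 to 1174878), the closest relative of REF6 and named for early flowering, stood at 24.9 and 31.1 CPM in wild type, 12.4 and 18.0 CPM at 30 °C, 2.86 and 26.1 CPM in generation 2, 3.78 and 13.6 CPM in generation 3, and 30.6 and 25.1 CPM in sgs3-12. Both libraries at 30 °C and both of generation 3 lay below wild type, whereas library 2 of generation 2 fell inside the wild-type range. Its log2 fold changes were -0.88 ± 0.90, -0.95 ± 0.90, -1.68 ± 0.92 and -0.01 ± 0.89 in the same order (SE with n = 2 per group; adjusted p by edgeR = 0.871, 0.674, 0.622 and 0.999). In library 1 of generation 2 REF6 and ELF6 each had 51 counts, against at least 482 in either wild-type library.

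JMJ13 (chromosome 5, 19046858 to 19050880), a demethylase that represses flowering depending on day length and temperature, overlapped wild type at 30 °C and in generations 2 and 3. It stood at 4.82 and 2.50 CPM in wild type, 3.74 and 4.86 CPM at 30 °C, 1.74 and 26.6 CPM in generation 2, 2.65 and 5.20 CPM in generation 3, and 8.00 and 5.30 CPM in sgs3-12. One library, the second of generation 2, was far above the other 9 and its own partner was the lowest of all. The log2 fold change in generation 2 was 1.95 ± 1.01 (SE with n = 2 per group; adjusted p by edgeR = 0.491), and the other 3 lay between 0.11 and 0.86. In that library 567 of the 19768 tested genes (2.87%) deviated from their own mean by as much as JMJ13 or more, and 839 genes exceeded a log2 deviation of 2, against 51 to 305 genes in the other libraries. It is also the library with the high WRKY40, and the part of its state in the JMJ13 value was not tested.

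The promoters of these genes were searched for GAANNTTC, a paired form of the heat shock element, the site class that heat shock factors bind. The window was the 250 bases before each gene's start in the RefSeq annotation of TAIR10.1. The motif reads the same on both strands. The other paired order, TTCNNGAA, was not searched, counted or marked, though the CLF sequence below holds it. GAANNTTC was found once in JMJ13 and once in CLF, and not in the other 8 members. Of all 27443 protein-coding promoters of that length, 2621 (9.55%) held it. The triple element (a paired element extended by 1 more unit of GAA or TTC on either side) occurred in 106 promoters (0.386%) and in no member, and the REF6-type motif CTCTGTTT, searched on both strands, in 936 (3.41%) and in no member. The HSFA2 promoter held GAANNTTC at 2 places and the triple element at 1. A match in letters is not a bound site, and a window without one says nothing of the factor. The sequences of REF6, JMJ13 and CLF are shown because they set the demethylase that lies low throughout the heat lineage beside the only members with GAANNTTC. The letters of that match are in capitals. They lie at chr3:17935006-17935255, chr5:19046089-19046338 and chr2:9954842-9955091 of TAIR10.1, all on the plus strand, written 5′ to 3′.
REF6: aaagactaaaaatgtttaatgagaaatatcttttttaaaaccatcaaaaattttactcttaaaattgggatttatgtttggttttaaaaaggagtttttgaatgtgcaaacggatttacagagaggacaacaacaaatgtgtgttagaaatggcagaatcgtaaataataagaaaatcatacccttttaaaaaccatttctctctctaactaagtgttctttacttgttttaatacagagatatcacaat
JMJ13: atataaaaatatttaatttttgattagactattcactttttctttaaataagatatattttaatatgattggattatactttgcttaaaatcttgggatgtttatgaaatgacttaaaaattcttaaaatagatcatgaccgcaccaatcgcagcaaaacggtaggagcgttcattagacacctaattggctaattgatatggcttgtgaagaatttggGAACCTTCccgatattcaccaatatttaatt
CLF: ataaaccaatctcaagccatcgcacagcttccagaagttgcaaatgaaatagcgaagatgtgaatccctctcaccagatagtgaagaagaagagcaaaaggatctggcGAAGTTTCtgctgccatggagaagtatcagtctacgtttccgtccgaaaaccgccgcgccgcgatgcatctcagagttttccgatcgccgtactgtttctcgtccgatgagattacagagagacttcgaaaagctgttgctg
The match starts 31 bases before the start in JMJ13 and 142 bases before it in CLF. The deposited gene models of these genes start further downstream than the RefSeq ones.

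Among the methyltransferases, CLF (chromosome 2, 9955553 to 9960359), named for the curled leaves of its mutant, stood at 11.5 and 7.51 CPM in wild type, 6.32 and 7.36 CPM at 30 °C, 1.63 and 8.55 CPM in generation 2, 2.19 and 6.32 CPM in generation 3, and 15.6 and 8.42 CPM in sgs3-12. The 30 °C and generation 3 libraries lay below wild type, by little for library 2 at 30 °C (7.36 against 7.51 CPM), and sgs3-12 overlapped it. Its log2 fold changes were -0.47 ± 0.77, -0.90 ± 0.77, -1.15 ± 0.78 and 0.34 ± 0.76 (SE with n = 2 per group; adjusted p by edgeR = 0.925, 0.644, 0.669 and 0.941).

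SWN (chromosome 4, 886600 to 891955), which acts partly redundantly with CLF, stood at 32.0 and 36.2 CPM in wild type, 17.0 and 27.4 CPM at 30 °C, 4.26 and 30.4 CPM in generation 2, 4.51 and 15.8 CPM in generation 3, and 51.4 and 54.2 CPM in sgs3-12. All 6 heat-lineage libraries lay below wild type and both mutant libraries above it. The log2 fold changes were -0.62 ± 0.84, -0.97 ± 0.84, -1.74 ± 0.86 and 0.63 ± 0.83 (SE with n = 2 per group; adjusted p by edgeR = 0.911, 0.644, 0.602 and 0.882). SWN and REF6 were the only members of the 10 for which generation 2 did not overlap wild type.

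The other PRC2 subunits were steadier. FIE (chromosome 3, 7248809 to 7252452), the WD40 subunit common to all forms of the complex, stood at 15.9 and 12.5 CPM in wild type, 12.0 to 14.3 CPM in the 6 heat-lineage libraries, and 22.6 and 20.1 CPM in sgs3-12. The mutant pair lay above every other library. The log2 fold change in sgs3-12 was 0.59 ± 0.31 (SE with n = 2 per group; adjusted p by edgeR = 0.578), and the other 3 lay between -0.15 and -0.06. FIE overlaps AT3G20730, which had 2 to 26 counts per library against 181 to 565 for FIE, so reads could be split between them.

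EMF2 (chromosome 5, 20823736 to 20829564), the zinc-finger subunit of the complex that keeps the vegetative state, stood at 22.1 and 19.9 CPM in wild type, 13.8 and 14.0 CPM at 30 °C, 10.7 and 20.5 CPM in generation 2, 14.7 and 15.7 CPM in generation 3, and 25.2 and 22.6 CPM in sgs3-12. The 30 °C and generation 3 pairs were tight and below wild type, and sgs3-12 was above it. Its log2 fold change at 30 °C was -0.60 ± 0.37 (SE with n = 2 per group; adjusted p by edgeR = 0.755), and -0.43 ± 0.37 and -0.47 ± 0.37 in generations 2 and 3 (SE with n = 2 per group; adjusted p by edgeR = 0.636 and 0.701).

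VRN2 (chromosome 4, 9476143 to 9479878), the EMF2 homologue of the vernalization complex, stood at 17.9 and 20.4 CPM in wild type, 14.7 to 19.1 CPM in the heat lineage, and 26.2 and 26.7 CPM in sgs3-12. Only the mutant stood clear of wild type, with a log2 fold change of 0.46 ± 0.30 (SE with n = 2 per group; adjusted p by edgeR = 0.667). LHP1 (chromosome 5, 5827171 to 5829682), the chromodomain reader of H3K27me3, behaved alike in level, with 16.7 and 22.4 CPM in wild type, 13.3 to 19.9 CPM in the heat lineage, and 25.0 and 24.3 CPM in sgs3-12. Its log2 fold change in the mutant was 0.34 ± 0.33 (SE with n = 2 per group; adjusted p by edgeR = 0.823).

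BRM (chromosome 2, 18923304 to 18931934) had the widest range in CPM of the 10. It stood at 92.5 and 83.2 CPM in wild type, 33.4 and 69.1 CPM at 30 °C, 6.62 and 91.4 CPM in generation 2, 7.76 and 35.1 CPM in generation 3, and 140.0 and 96.6 CPM in sgs3-12. The 30 °C and generation 3 libraries lay below wild type, the mutant libraries above it, and generation 2 spanned from the lowest value of all to within the wild-type range. The log2 fold changes were -0.78 ± 1.05, -0.84 ± 1.05, -2.03 ± 1.09 and 0.43 ± 1.05 (SE with n = 2 per group; adjusted p by edgeR = 0.911, 0.750, 0.620 and 0.945).

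**Figure D1:**
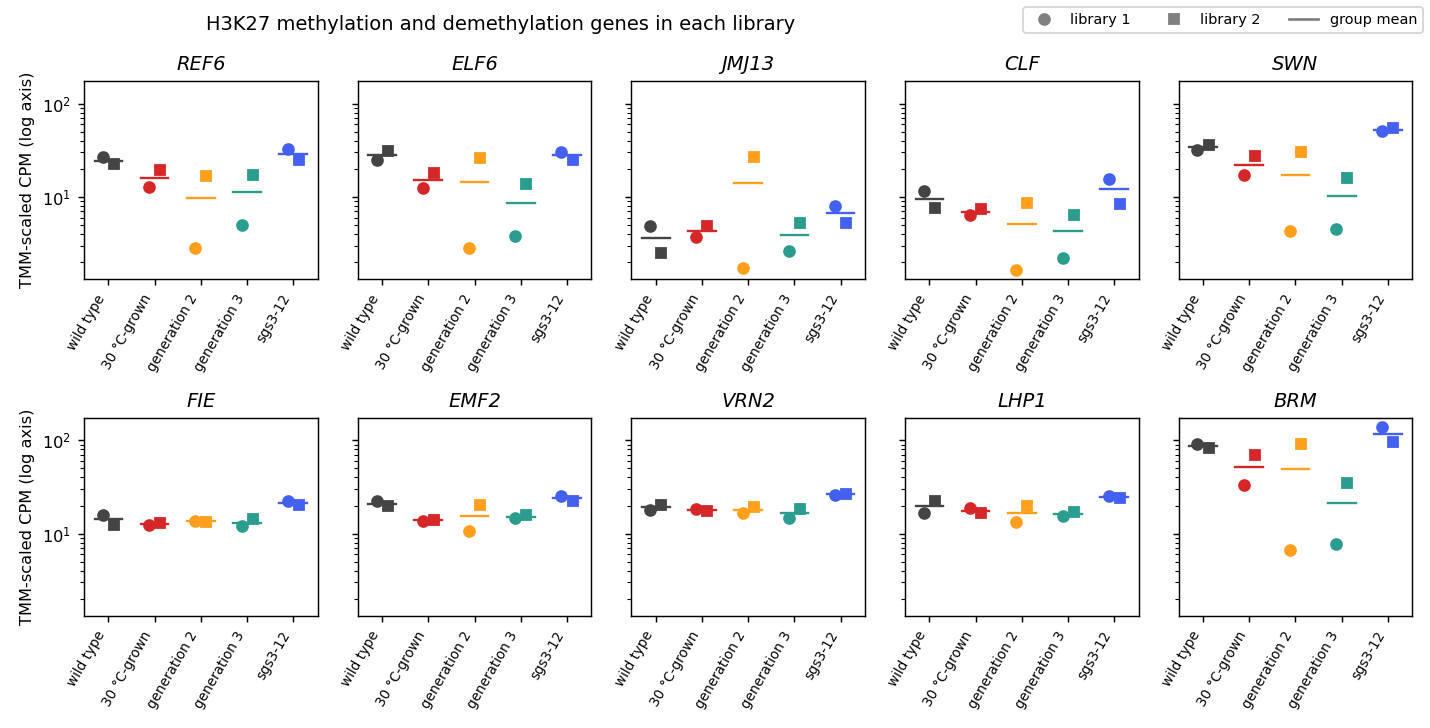
Level of each of the 10 genes (TMM-scaled CPM, log axis) in each of the 10 libraries, by group; circles and squares are libraries 1 and 2 and horizontal lines are group means. REF6, ELF6, CLF, SWN and BRM share a low first library in generations 2 and 3, while FIE, VRN2 and LHP1 stay between 12.0 and 26.7 CPM throughout.

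Set per kilobase of gene length, the order of the medians over 10 libraries was SWN (10.1 CPM per kb), BRM (9.95), LHP1 (9.92), FIE (8.67), VRN2 (7.82), EMF2 (5.93), ELF6 (5.03), REF6 (4.19), CLF (2.50) and JMJ13 (2.02 CPM per kb). The ranges of every pair of neighbours in that order overlapped. VRN2 was above EMF2 and REF6 above CLF in 10 of 10 libraries, and FIE above VRN2 in 9, whereas ELF6 was above REF6 in 5 of 10. CLF or JMJ13 was the lowest member in every library. JMJ13 rose to second place in library 2 of generation 2.

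At 30 °C, 6 members (REF6, ELF6, CLF, SWN, EMF2 and BRM) had both libraries below both wild-type libraries, and 0 had both above. Over all tested genes 25.2% lay below in this sense and 26.3% above. The members' median log2 fold change was -0.54, with 9 of 10 negative, against a median of -0.02 for all tested genes. No member passed an adjusted p of 0.05 by edgeR, where the background is 0% (0 of 19768 genes). None reached an unadjusted p of 0.05 by edgeR either, against 7.91% of all genes (1564), and DESeq2, which called 1.51% of all genes (299), called 0 members. limma-voom also called 0 members, here and in the 5 comparisons that follow. At an unadjusted p of 0.05 limma-voom had 1 member (EMF2) and 3321 of 19768 genes at 30 °C and 0 and 678 in generation 2. Against wild type it had 3 and 2039 in generation 3 and 1 and 3647 in sgs3-12. It had 0 members in both comparisons between generations, with 573 and 19 genes. In bulk leaf RNA, fewer cells that express a gene and less of its RNA per cell cannot be told apart.

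In generation 2, 2 members (REF6 and SWN) lay below wild type without overlap and 0 above, against 17.2% and 16.8% of all tested genes. The members' median log2 fold change was -0.64, with 9 of 10 negative, against 0.11 for all genes. edgeR called 0 members and 0 of 19768 genes (0%), DESeq2 0 members and 669 genes (3.38%). At an unadjusted p of 0.05 edgeR had 0 members and 2302 genes (11.6%), and DESeq2 had 1 member (JMJ13) and 2914 genes (14.7%). These numbers depend on which library of the pair is kept. Without library 2, edgeR called 3 members lower among 8.1% of all genes (1637 genes, of which 1586 were lower): REF6 with -3.25 on the log2 scale (adjusted p = 0.0479), ELF6 at -3.44 (adjusted p = 0.0431) and SWN at -3.15 (adjusted p = 0.049995). Over the 11 fits that left out libraries, their adjusted p in edgeR ranged up to 0.798, 0.961 and 0.935. Without library 1, edgeR called JMJ13 higher, at 2.86 (adjusted p = 0.0323, range over the same fits 0.0201 to 0.819), among 3.76% of all genes, and no member lower. Without the first libraries of generations 2 and 3 together, JMJ13 was called higher as well, at 2.89, among 6.02% of all genes. In such a fit the library left alone is assumed to vary like the other groups.

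In generation 3 the 6 members that lay below wild type at 30 °C were again below it without overlap, and 0 were above, against 22.2% and 21.1% of all tested genes. The 2 comparisons share the wild-type libraries. The members' median log2 fold change was -0.80, with 9 of 10 negative, against 0.04 for all genes. edgeR called 0 members and 0% of genes, with 0 members and 1696 genes (8.58%) at an unadjusted p of 0.05. DESeq2 called 0 members and 212 genes (1.07%), with 1 member (SWN) and 2325 genes (11.8%) at an unadjusted p of 0.05. BRM, SWN and ELF6 had the 3 lowest values, and both of their generation 3 libraries lay below wild type, by more in library 1 than in library 2.

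In sgs3-12 the members lay on the other side. Both mutant libraries were above both wild-type libraries for 7 members (JMJ13, SWN, FIE, EMF2, VRN2, LHP1 and BRM) and below for 0, against 27% and 24.6% of all tested genes. The median log2 fold change was 0.38, with 9 of 10 positive, against 0.01 for all genes. edgeR called 0 members and 0% of genes, with 0 members and 1959 genes (9.91%) at an unadjusted p of 0.05, and DESeq2 called 0 members and 600 genes (3.04%).

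Between generations few members separated. Generation 2 lay above 30 °C without overlap for FIE alone (13.7 and 13.4 against 12.4 and 13.0 CPM), against 16.7% of all tested genes, and below for 0, against 18.7%. Generation 3 against generation 2 gave 0 members on either side, against 5.78% above and 6.27% below. edgeR called 0 members in both, with 0% of genes called and 0 members at an unadjusted p of 0.05 (9.35% and 1.66% of genes), and DESeq2 called 0 members of 345 (1.75%) and 2 (0.0101%) genes. Without library 1 of both generations, JMJ13 was called higher in generation 2 than at 30 °C, by 2.67 on the log2 scale (edgeR adjusted p = 0.0337, up to 1 over the 11 fits), among 3.88% of genes.

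**Figure D2:**
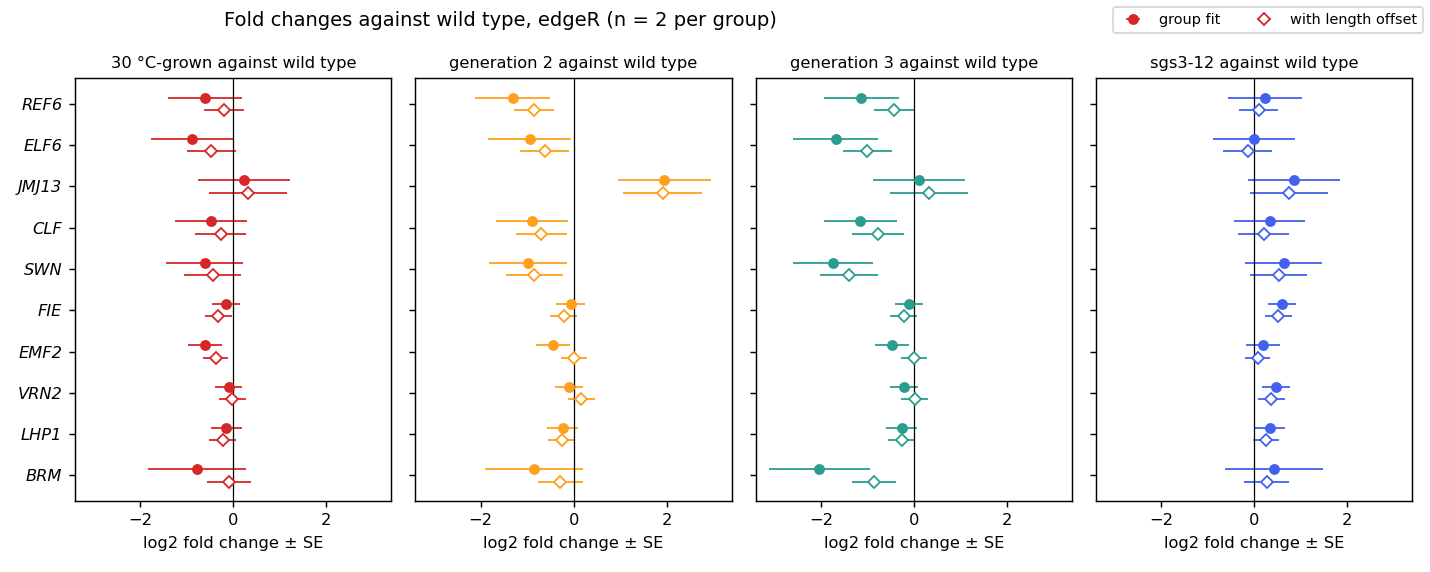
Log2 fold change of each member against wild type (x axis) with its standard error, n = 2 libraries per group, in the fit on groups alone (filled circles) and with each library's trend on gene length removed (open diamonds). BRM in generation 3 moves from -2.03 to -0.86 and SWN from -1.74 to -1.39 when the length trend is removed.

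The members differ in length, and gene length went with position relative to wild type over all tested genes. Length here is the value implied by the deposited counts and FPKM, and how it was defined is not stated. BRM has 7656 bp and is longer than 99.6% of tested genes, REF6 4373 bp (96.0%) and ELF6 4263 bp (95.6%). EMF2 has 2996 bp (85.9%), CLF 2968 bp (85.5%), SWN 2876 bp (84.2%), JMJ13 2394 bp (74.7%) and VRN2 2351 bp (73.6%), while LHP1 at 1816 bp (55.6%) and FIE at 1563 bp (44.7%) are near the middle. Of the longest 10% of tested genes, which start at 3370 bp, 52.0% lay below wild type without overlap at 30 °C, 40.5% in generation 2 and 60.1% in generation 3, and 32.5% lay above it in sgs3-12. For the next 10%, which hold CLF, SWN and EMF2, the shares were 39.3%, 32.5%, 42.0% and 31.5%, and for the shortest 10% 13.7%, 3.29%, 6.47% and 19.0%.

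The members' deviations were set beside the median of genes of like length, which many such genes lie beyond by definition. In library 1 of generation 2 the median deviation was -1.48 for the longest 10% of genes and -0.80 for the next 10% on the log2 scale. REF6 and ELF6 deviated by -2.33 and -2.34, BRM by -2.77, SWN by -2.25 and CLF by -1.90, whereas EMF2, close to CLF in length, deviated by -0.70. In library 1 of generation 3 the 2 medians were -0.70 and -0.30. There BRM deviated by -2.55, ELF6 by -1.95, REF6 by -1.54, SWN by -2.17, CLF by -1.50 and EMF2 by -0.23. How many genes of such length deviated as far was not counted. BRM, at 7656 bp, is also far above the median length of the longest 10%, which is 4123 bp.

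With the length trend of each library taken out, the members' median log2 fold change moved from -0.54 to -0.25 at 30 °C and from -0.64 to -0.27 for generation 2. It moved from -0.80 to -0.34 for generation 3 and from 0.38 to 0.26 in sgs3-12. In the same fit the median of all tested genes was -0.09, 0.01, 0.02 and -0.06 in that order. SWN in generation 3 kept -1.39 ± 0.62 (SE with n = 2 per group; adjusted p by edgeR = 0.587), and REF6 in generation 2 kept -0.85 ± 0.43 (SE with n = 2 per group; adjusted p by edgeR = 0.470). EMF2 came to 0.00 in both generations. The source of the length trend was not tested, and no RNA integrity value was at hand.

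**Figure D3:**
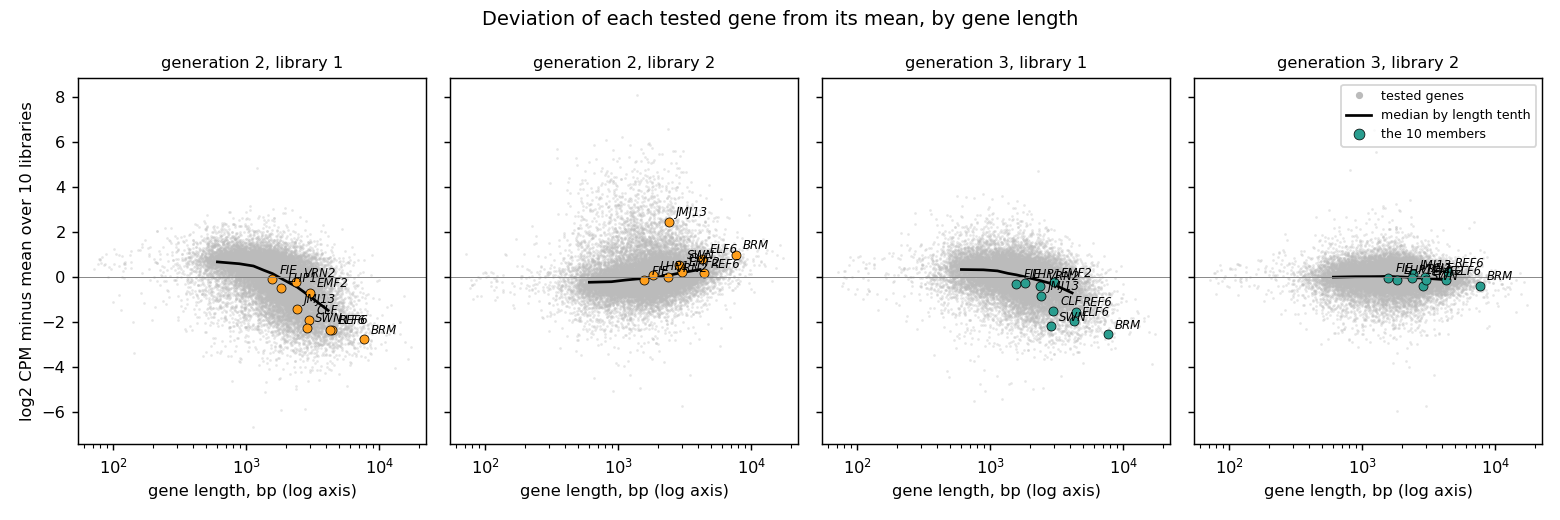
Deviation of each tested gene's log2 CPM from its mean over 10 libraries (y axis) against gene length in bp (log axis) in the 4 libraries of generations 2 and 3; grey points are genes, the black line joins the medians of 10 equal groups by length and coloured points are the 10 members. In both first libraries the line slopes down and BRM is the lowest of the members, at -2.77 and -2.55.

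The members also differed within groups, with a median gap between the libraries of generation 2 of 2.42 on the log2 scale (all tested genes 1.00) and of 1.22 for generation 3 (all genes 0.59). Between the libraries of generation 2, 6 of 10 members (REF6, ELF6, JMJ13, CLF, SWN and BRM) differed by more than 1 on the log2 scale, as did 49.9% of all tested genes. The largest gaps were 3.87 for JMJ13 and 3.77 for BRM, while FIE changed by -0.03 from library 1 to library 2. In generation 3 the count was 5 of 10, against 27.4% of genes, at 30 °C 1 (BRM, 1.05), against 8.31%, and 0 in wild type, against 21.6%, and in sgs3-12, against 10.3%.

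The ratio of REF6 and ELF6 to CLF and SWN varied less over the libraries than the 4 levels. REF6 and ELF6 together, per kilobase, stood at 0.795 and 0.821 of CLF and SWN together in wild type, 0.722 and 0.720 at 30 °C, 0.653 and 0.741 for generation 2, 0.885 and 0.937 for generation 3, and 0.631 and 0.536 in sgs3-12. Generation 3 lay above wild type without overlap and the other 3 groups below it. With JMJ13 included as the third demethylase, the ratio stood at 0.929 and 0.891 in wild type, 0.916 and 0.889 at 30 °C, 1.01 and 1.57 for generation 2, 1.37 and 1.22 for generation 3, and 0.775 and 0.638 in sgs3-12. On that count generation 2 lay above wild type instead of below it and the 30 °C pair overlapped it, while generation 3 stayed above and the mutant below. These ratios were not tested. By contrast, the non-catalytic FIE stood at 0.678 and 0.528 of CLF and SWN in wild type and 0.990 and 0.693 at 30 °C. It stood at 4.31 and 0.638 for generation 2, 3.33 and 1.20 for generation 3, and 0.626 and 0.594 in sgs3-12. The catalytic subunits and FIE thus parted most in the first libraries of generations 2 and 3. FIE (1563 bp) is shorter than CLF (2968 bp) and SWN (2876 bp), and the part of the length trend in this ratio was not tested.

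VRN2 per kilobase stood at 1.03 and 1.31 times EMF2 in wild type and at 1.69 and 1.60 at 30 °C, which did not overlap. It was 1.99 and 1.19 for generation 2, 1.27 and 1.504 for generation 3, and 1.33 and 1.51 in sgs3-12. SWN exceeded CLF per kilobase in every library, by a ratio of 2.13 to 6.65. BRM stood at 1.99 and 2.13 times REF6 in wild type, 1.51 and 2.03 at 30 °C, and 1.32 and 3.10 for generation 2. This ratio was 0.879 and 1.16 for generation 3, below wild type, and 2.47 and 2.20 in sgs3-12, above it. BRM (7656 bp) is longer than REF6 (4373 bp), EMF2 (2996 bp) than VRN2 (2351 bp), and REF6 and ELF6 (4263 bp) than CLF (2968 bp) and SWN (2876 bp). The part of the length trend in the ratios of these genes was not tested.

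**Figure D4:**
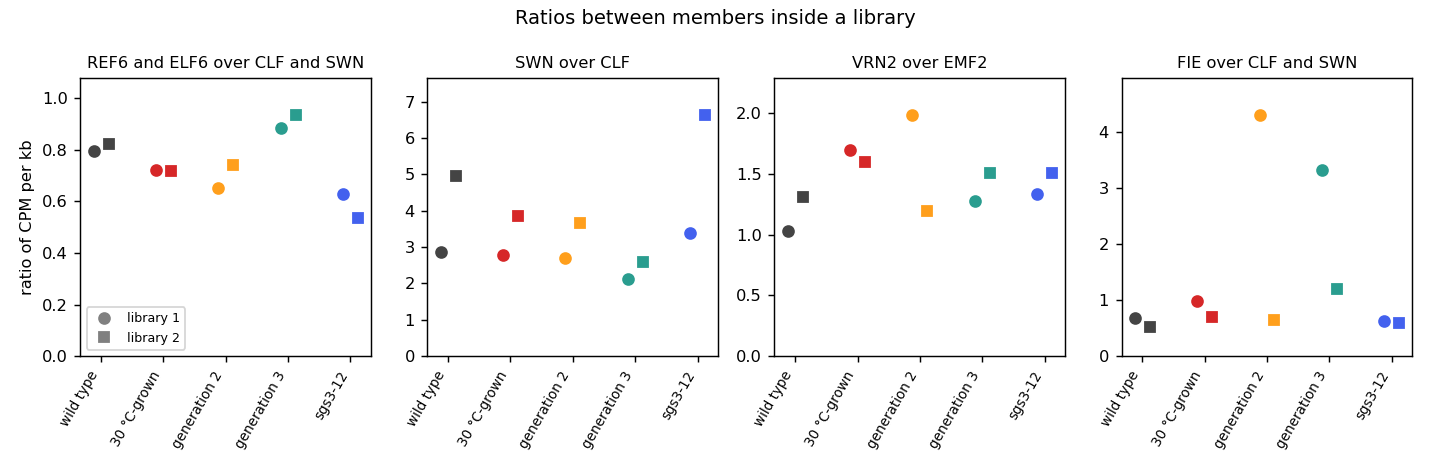
Ratios of summed CPM per kilobase between members in each of the 10 libraries (y axes from 0), by group; points are libraries. REF6 and ELF6 (without JMJ13) over CLF and SWN stay between 0.536 and 0.937, while FIE over CLF and SWN runs from 0.528 to 4.31.

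The genes most like REF6 over the 10 libraries, by Pearson correlation of log2 CPM, were DCAF1 (AT4G31160, r = 0.997), TRM4 (AT1G74160, r = 0.994) and AT1G16800 (r = 0.992). For CLF they were PI4KA1 (AT1G49340, r = 0.992), AT1G77460 (r = 0.987) and AT5G04680 (r = 0.987), and for BRM emb1579 (AT2G03150, r = 0.995), GTB1 (AT1G65440, r = 0.995) and NERD (AT2G16485, r = 0.994). Of these 9 genes all but AT5G04680 (2165 bp) are at least 4096 bp long, and every correlation rests on the same libraries with their length trends. Among the members REF6 followed CLF (r = 0.973), ELF6 and BRM (both 0.966) and SWN (0.957) more closely than LHP1 (0.770), VRN2 (0.692), FIE (0.532) or JMJ13 (0.522). These are descriptions over 10 libraries of 5 groups.

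Genes around the 10 members were set in 6 lists, given below. edgeR called 0 members of each list against wild type in any group. It called 0 of all 19768 genes (0%) in each of these comparisons, so the lack of calls says nothing particular to the lists. Of 11 other PRC2 subunits and partners 7 were tested, and the telobox-binding protein gene TRB2 had the smallest p among those with a negative value in each of the 4 groups, at 29.1 and 27.1 CPM in wild type, 19.9 and 9.89 at 30 °C, 21.4 and 21.3 for generation 2, 21.4 and 22.1 for generation 3, and 15.9 and 14.5 CPM in sgs3-12. Both libraries of each group thus had less than wild type, with an edgeR adjusted p of 0.610 at 30 °C and 0.488 in the mutant (log2 fold changes -0.92 ± 0.37 and -0.89 ± 0.37, SE, n = 2 per group). On the other side MSI1, the histone-binding subunit of PRC2, had 16.7 and 17.2 CPM in wild type against 22.0 and 20.9 CPM at 30 °C. TRB1 had the smallest p among genes with a positive value in generation 2 (0.40 ± 0.37), TRB3 for generation 3 (0.62 ± 0.42) and VRN5 in sgs3-12 (0.30 ± 0.49, log2 fold changes with SE, n = 2 per group).

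Of 10 genes of PRC1 and H2A ubiquitination 9 were tested. Without overlap, 2 lay below wild type and 3 above at 30 °C (25.2% and 26.3% of all tested genes), 4 and 1 in generation 2 (17.2% and 16.8%), 4 and 1 in generation 3 (22.2% and 21.1%), and 0 and 6 in sgs3-12 (24.6% and 27%). Their median log2 fold changes were -0.05, -0.48, -0.44 and 0.19 in that order, against -0.02, 0.11, 0.04 and 0.01 for all genes. UBP12 (4335 bp), UBP13 (4208 bp), EMF1 (4059 bp) and LIF2 (3597 bp) belong to the longest 10% of tested genes. In that 10%, 52.0%, 40.5% and 60.1% lay below wild type in the heat-lineage groups, and 32.5% above it in sgs3-12. The deubiquitinase gene UBP13 stood at 85.8 and 97.3 CPM in wild type, 16.0 and 59.4 CPM in generation 2 and 34.4 and 46.4 CPM in generation 3. The H2A ubiquitin ligase gene RING1B had 2.52 and 3.29 CPM in wild type against 6.997 and 8.20 CPM at 30 °C. BMI1A, another such ligase, had 6.81 and 5.61 CPM in wild type against 11.04 and 9.75 CPM in sgs3-12, and VRN1, named for vernalization, had 13.2 and 25.5 CPM against 14.7 and 16.5 CPM.

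All 4 other H3K27 enzymes were tested. The demethylase gene JMJ30, which is under clock control, had 0.442 and 8.11 CPM in wild type, so its 2 wild-type libraries differed in the same direction as TOC1. In all 8 other libraries JMJ30 lay below wild-type library 2, between 0.292 and 3.21 CPM. JMJ32 had 1.33 and 2.55 CPM in wild type against 1.79 and 2.67 CPM in generation 3. The H3K27 monomethyltransferase gene ATXR5 had 4.55 and 2.97 CPM in wild type against 5.59 and 5.83 CPM at 30 °C.

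Of 5 Trithorax group genes 4 were tested, and 2 lay below wild type without overlap at 30 °C (25.2% of all tested genes), 3 in generation 2 (17.2%), 3 in generation 3 (22.2%) and 0 in sgs3-12 (24.6%), with 0 above in each. PKL (4402 bp) and ATX2 (3880 bp) belong to the longest 10% of genes, of which 52.0%, 40.5% and 60.1% lay below in the heat-lineage groups. ATX1, an H3K4 methyltransferase gene, had 5.39 and 6.12 CPM in wild type, 0.841 and 2.72 CPM in generation 2 and 1.53 and 2.72 CPM in generation 3, and its log2 fold change in generation 2 was -1.68 ± 0.65 (SE with n = 2 per group; adjusted p by edgeR = 0.386). PKL, a chromatin remodeller, had 85.7 and 82.0 CPM in wild type against 22.1 and 53.4 CPM at 30 °C. ATX2 had 36.6 and 46.4 CPM in wild type against 57.8 and 44.4 CPM in sgs3-12, while ULT1 differed between its libraries in wild type (5.92 and 1.67 CPM), generation 2 (10.04 and 1.99 CPM) and the mutant (3.12 and 1.20 CPM).

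All 13 other genes of the SWI/SNF complex were tested. Without overlap, 6 lay below wild type and 2 above at 30 °C (25.2% and 26.3% of all tested genes), 4 and 1 in generation 2 (17.2% and 16.8%), 8 and 0 in generation 3 (22.2% and 21.1%), and 1 and 5 in sgs3-12 (24.6% and 27%). Their median log2 fold changes were -0.21, -0.54, -0.52 and 0.22 in that order. SYD, SWI3D (5927 bp), BRD13 (5262 bp) and CHR12 (3710 bp) belong to the longest 10% of tested genes. Of that 10%, 52.0%, 40.5% and 60.1% lay below wild type in the heat-lineage groups, and 32.5% above it in sgs3-12. SYD, the ATPase most like BRM and 17188 bp long, had 138 and 123 CPM in wild type against 8.36 and 20.6 CPM in generation 3, a log2 fold change of -3.17 ± 1.11 (SE with n = 2 per group; adjusted p by edgeR = 0.548). CHR23, another ATPase of the family, had 24.6 and 16.2 CPM in wild type against 5.39 and 9.94 CPM at 30 °C. SWI3B, a core subunit 1621 bp long, had 18.3 and 17.0 CPM in wild type against 31.9 and 24.1 CPM at 30 °C, and SWP73B (CHC1 in the table) had 32.1 and 37.7 CPM in wild type against 13.6 and 24.5 CPM in generation 2. Of the rest named by the rule, AT3G01890 had a log2 fold change of 0.22 ± 0.34 for generation 2, SWI3A 0.45 ± 0.50 and BSH -0.41 ± 0.39 in sgs3-12 (SE with n = 2 per group).

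Of 19 known Polycomb target genes 8 passed the filter on low counts, and the others had too few counts to be tested. Without overlap, 2 lay below wild type and 2 above at 30 °C (25.2% and 26.3% of all tested genes), and 1 and 3 in generation 2 (17.2% and 16.8%). In generation 3 the counts were 1 and 3 (22.2% and 21.1%), and in sgs3-12 2 and 3 (24.6% and 27%). Their median log2 fold changes were 0.02, 0.97, 0.71 and 0.22 in that order. The seed regulator gene FUS3 had the smallest p among the lower genes of the list in each group. It had 2.65 and 1.85 CPM in wild type and between 0.360 and 1.07 CPM in all 8 other libraries, which did not overlap the wild-type pair that all comparisons share. Its log2 fold changes ran from -1.40 ± 0.57 at 30 °C to -2.32 ± 0.59 in sgs3-12 (SE with n = 2 per group; adjusted p by edgeR = 0.610 and 0.339). The floral gene SEP3 had 0.530 and 0.0464 CPM in wild type against 2.19 and 0.888 CPM at 30 °C, and the florigen gene FT had 0.265 and 0.649 CPM in wild type against 3.03 and 0.680 CPM in generation 2. PI had 0 counts in both wild-type libraries, 0 to 6 in the heat-lineage libraries, and 11 and 15 in sgs3-12 (0.440 and 0.668 CPM). It passed the filter on low counts only through the mutant pair, so its height there was selected for and is no evidence of a change. The edgeR adjusted p was 0.453. Against a floor of 3 counts over the wild-type pair the mutant value was at least 8.07-fold higher. Floors cover counting error only.

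HSFA2, the heat shock factor gene linked to REF6, had 1.11 and 0.278 CPM in wild type against 4.96 and 4.52 CPM at 30 °C, with no overlap. It had 1.46 and 2.09 CPM in generation 2, 1.19 and 2.97 CPM in generation 3, and 1.68 and 3.79 CPM in sgs3-12, above both wild-type libraries in each, the closest being 1.19 against 1.11 CPM.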

How the data were processed

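PolyA RNA of 10 libraries was analysed as deposited. Per the submitters' processing notes, HISAT2 2.0.4, StringTie 1.3.0 and the TAIR10 build were used. How reads were counted, and with which strand setting, is not stated. Per the file headers, the deposited values are the authors' read counts per gene and their FPKM. Of the FPKM columns, 2 carry the same name from the 30 °C plants and were not used. The other 8 gave, with the counts, each gene's length.

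Counts were tested with edgeR 4.0.16 in R 4.3.3: quasi-likelihood F-test, 1 model of group over all 10 libraries, TMM scaling, the filterByExpr filter, and Benjamini-Hochberg adjusted p under 0.05 over 19768 genes. Groups came from the sample titles. DESeq2 1.42.0, limma 3.58.1 (voom) and the other settings of the closing section were alternatives. The fits were run on simulated counts only to check that the code recovers known changes. Those counts had no length trend and far less spread between libraries than the data, where the biological coefficient of variation was 0.472. That check thus cannot show how many changes the fits miss here. Errors beside fold changes are approximate standard errors, computed as the absolute log2 fold change divided by the square root of edgeR's F statistic. The length-corrected fit used a loess trend (span 0.5) of each library's log2 CPM (prior count 2) on length as an offset.

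The 10 members and the lists were chosen with earlier results of these data known. All members are named; of each other list, called genes or, with none called, the gene of smallest edgeR p per direction and comparison; and for REF6, CLF and BRM the 3 genes of highest correlation. Names and starts came from RefSeq, where 32835 of 33602 gene IDs were matched. Near-identical copies and overlapping genes are uncertain where counting could split reads.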

Additional observations from a re-analysis of the deposited data

How the results depend on the processing

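The main limits are 2 libraries per group, the length trend of the first libraries of generations 2 and 3, the stress state of library 2 of generation 2 and the clock state of wild-type library 2. The lowest member count in a library was 29 (CLF), and how far depth limits the members was not tested. Members called by edgeR stayed at 0 in every comparison under each of the 6 alternatives that kept all libraries (another scaling, no filter, DESeq2, limma-voom, the replicate block and the length offset). The number of all genes called, 0 by edgeR, was 299 by DESeq2 and 3 by limma-voom at 30 °C, 669 by DESeq2 in generation 2, 212 in generation 3, 600 in sgs3-12 (114 by limma-voom, 1 without a filter), 345 for generation 2 against 30 °C and 2 for generation 3 against generation 2. The cause was not tested.

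The labels do not say that a replicate number marks a shared batch. Deviations of same-numbered libraries correlated from -0.27 to 0.45 over 10 pairs of groups, so not every pair passed 0.1 and the numbers were not taken as a pairing. Among 30 °C, generation 2 and generation 3 all 3 pairs did pass it (0.19, 0.21 and 0.45). With the replicate block edgeR called 1 gene in generation 2 and 1 in sgs3-12, and JMJ13 in generation 3 came to -0.075 and ELF6 in sgs3-12 to 0.098 on the log2 scale. With the numbers of the 30 °C or the generation 3 pair crossed, a pairing chosen after seeing the data, 0 genes were called.

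Other log2 fold changes whose sign turned were near 0. With the length offset, EMF2 came to 0.0044 and VRN2 to 0.17 in generation 2, EMF2 to 0.0047 and VRN2 to 0.014 in generation 3, VRN2 to 0.19 for generation 2 against 30 °C and EMF2 to 0.00030 for generation 3 against generation 2. ELF6 in sgs3-12 came to 0.00067 with size factors of the DESeq2 kind and to 0.00063 by DESeq2. By limma-voom, CLF came to 0.016 and EMF2 to 0.035 for generation 3 against generation 2.

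Leaving out libraries (10 fits without 1 library and 1 without the first libraries of generations 2 and 3) moved the number of all genes called from 0 to at most 50 at 30 °C, 1637 in generation 2, 1 in generation 3, 801 in sgs3-12, 788 for generation 2 against 30 °C and 252 for generation 3 against generation 2. The 50, 801 and 788 came without both first libraries (1222 in generation 2), the 1637 without library 2 of generation 2, and the 252 without its library 1. Leaving out library 1 of generation 2 gave 34, 764, 1, 4 and 487 genes in the first 5 comparisons, and leaving out its library 2 gave 19, 1637, 1, 4 and 0. Without wild-type library 2, 1 gene was called in each of the 3 Col-0 comparisons with wild type, and without wild-type library 1, 5 genes in sgs3-12. The number of members called ran from 0 to 3 in generation 2 against wild type and from 0 to 1 for generation 2 against 30 °C. Of 60 log2 fold changes 28 kept their sign in all 11 fits: 7 at 30 °C, 5 in generation 2, 8 in generation 3, 8 in sgs3-12, and 0 in both comparisons between generations. The order of members by level kept at least 43 of 45 pairs. The other 32 ranged as follows. At 30 °C against wild type JMJ13 ran from -0.17 to 0.78, FIE from -0.32 to 0.028 and LHP1 from -0.35 to 0.074. In generation 2 against wild type JMJ13 ran from -1.23 to 2.89, FIE from -0.29 to 0.12, VRN2 from -0.36 to 0.029, LHP1 from -0.70 to 0.058 and BRM from -3.89 to 0.090. In generation 3 against wild type JMJ13 ran from -0.47 to 0.65 and FIE from -0.30 to 0.077. In sgs3-12 against wild type ELF6 ran from -0.16 to 0.14 and CLF from -0.17 to 0.69. In generation 2 against 30 °C REF6 ran from -2.65 to 0.11, ELF6 from -2.58 to 0.82, JMJ13 from -1.47 to 2.67, CLF from -2.24 to 0.36 and SWN from -2.55 to 0.49. There, FIE ran from -0.065 to 0.11, EMF2 from -0.55 to 0.60, VRN2 from -0.28 to 0.13, LHP1 from -0.57 to 0.21 and BRM from -3.12 to 0.87. In generation 3 against generation 2 REF6 ran from -0.97 to 2.12, ELF6 from -1.94 to 1.76, JMJ13 from -2.75 to 1.33, CLF from -1.22 to 1.54 and SWN from -1.94 to 1.41. There, FIE ran from -0.17 to 0.10, EMF2 from -0.43 to 0.65, VRN2 from -0.28 to 0.14, LHP1 from -0.28 to 0.43 and BRM from -2.66 to 1.85.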
